A study of Mus musculus with 24 samples.

Results

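Epididymal adipose tissue of wild-type (WT) mice on a high-fat diet (HFD) was compared with that of WT mice on a normal diet (ND), 3 arrays against 3. These 6 arrays were chosen by their sample titles from the 24 arrays of the series, which cover epididymal adipose tissue and liver of 12 mice. The question of the series is the part that GPR120, the long-chain fatty acid receptor encoded by Ffar4, plays in obesity from dietary fat. The HFD arrays came from WT mice 546, 547 and 560 and the ND arrays from WT mice 686, 687 and 690, and values of single arrays are given in this order. Every mouse of the series had a mixed 129/Sv and C57BL/6 background, and the labels state neither age nor length of feeding. Epididymal fat of mice lacking GPR120 (GPR120 KO), HFD mice 427, 428 and 429 and ND mice 718, 719 and 720, gave a diet comparison that shares no array with the WT comparison. Each array held RNA of a whole piece of tissue from 1 mouse, so fewer cells of a type and less RNA per cell cannot be told apart.

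White adipose tissue stores triacylglycerol in adipocytes, releases fatty acids from it by lipolysis, and secretes hormones such as leptin. When fat is stored in excess, adipocytes enlarge, and the macrophages, blood vessels and matrix-forming cells around them can be remodelled. The epididymal depot lies against the epididymis, a duct whose epithelium secretes proteins that take part in sperm maturation.

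The labelled tissue was present on every array. Adipoq, which encodes adiponectin, read 6437, 7003 and 7424 intensity units on HFD and 3800, 5771 and 6654 on ND. The lipid droplet gene Plin4, the droplet fusion gene Cidec, the fatty acid binding protein gene Fabp4 and the hormone-sensitive lipase gene Lipe were likewise far above the median signal of every array. Some arrays stood apart. Array medians were 17.16 to 18.81 on HFD and 23.24 to 25.77 on ND, and arrays of a group correlated with Spearman's rho of 0.898 to 0.946 across probe sets. The ratio of 3' to 5' probe sets of Actb, a sign of RNA quality or labelling, was log2 1.13 to 1.68 on the HFD arrays and 0.88 to 0.92 on the ND arrays, and that of Gapdh was -0.00 to 0.21 and -0.41 to -0.34. On KO arrays the Actb ratio was 0.62 to 0.80 on HFD and 0.72 to 0.85 on ND, and the Gapdh ratio -0.09 to -0.05 and -0.48 to -0.38. The Gapdh ratio was thus higher on HFD in both genotypes and the Actb ratio in WT alone, and their part in the results was not tested. HFD mouse 547 carried skeletal muscle transcripts, ND mice 686 and 690 carried sperm transcripts, and all 3 ND arrays carried transcripts of the epididymis. Among the KO arrays, HFD mouse 427 carried epithelial transcripts. The small number of arrays limits precision here, and so do such differences between arrays of a group. The p-values measure the spread between mice within the fat groups, with the KO arrays included because all groups were fitted together.

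Of 11613 genes tested, 3239 (27.9%) were higher on HFD and 3184 (27.4%) were lower, at a limma adjusted p under 0.05. The median log2 difference was -0.03. Of the called genes 3333 differed at least 2-fold, 1610 of them higher and 1723 lower on HFD. The 3 HFD and 3 ND signals did not overlap for 7106 genes (61.2%), with HFD above ND for 3544 and below it for 3562. Since called genes made up most of those tested, counts within any gene list are read against these shares.

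The direction of most genes depended on the scaling. The deposited signals are scaled to a common trimmed mean, and centring each array on the adipocyte marker list instead moved the median of all genes by -2.03 on the log2 scale. On that scale 109 genes (0.939%) were higher and 10428 (89.8%) lower on HFD. For each list the counts relative to the adipocyte markers are therefore given beside those on the deposited scale, as "relative to adipocyte markers". Every log2 difference is HFD minus ND on the deposited scale unless it is said to be relative, and "rose" and "fell" refer to genes called on that scale.

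Transcripts of the epididymal duct were lower on HFD by the widest margin of any list. All 17 tested epididymis genes fell (relative to adipocyte markers, 17 lower), with a median of at least 230.0-fold once dim signals are replaced by the level of the filter on low signals (19.3 intensity units). The summed signal of the 18 measured genes was 99.9 to 347 on HFD and 61027 to 91760 on ND arrays. Gpx5, an epididymal glutathione peroxidase, read 10.4, 13.5 and 11.9 on HFD and 4935, 7367 and 8196 on ND, at least 346.0-fold lower (adjusted p = 1.05e-06). The serine protease inhibitor gene Spink8 was at least 345.0-fold lower and the lipocalin gene Lcn8 at least 317.0-fold lower. Both were picked among the largest bounds, which required that the HFD and ND arrays not overlap. KO fat gave the same 17 falls, with sums of 58.5 to 6012 on HFD, the highest in mouse 427, and 66916 to 82609 on ND. Diet and the amount of epididymal RNA cannot be told apart in these samples, because every ND array of both genotypes was high and every HFD array low. The same holds for genes of other lists, both those that fell and those that rose, as all arrays were scaled to a common trimmed mean. The part of epididymal RNA in these falls and rises was not tested.

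The promoter of Lcn5, whose transcript had the largest bound of all falls (at least 443.0-fold), is shown because its product is made by the epididymal epithelium and not by adipocytes. It lies at chr2:25657702-25658001 on the plus strand of GRCm38.p6 and runs from 250 bases before the RefSeq start to 50 bases after it, with a TATAA match in capitals that begins 28 bases before the start:
Lcn5: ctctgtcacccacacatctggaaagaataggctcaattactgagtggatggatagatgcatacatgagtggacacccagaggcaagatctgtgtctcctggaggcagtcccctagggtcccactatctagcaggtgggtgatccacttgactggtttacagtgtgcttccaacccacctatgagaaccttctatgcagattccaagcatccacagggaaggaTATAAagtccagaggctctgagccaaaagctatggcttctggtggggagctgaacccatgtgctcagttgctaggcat
TATAA, or TTATA for the other strand, occurs in 8171 of 32851 promoters of this length (24.9%).

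General epithelial genes followed the epididymis list. All 19 fell (relative to adipocyte markers, 19 lower), with a median of at least 17.4-fold and sums of 478 to 1243 on HFD against 14811 to 19542 on ND. The epithelial adhesion gene Cdh1 read 37.4, 0.420 and 16.1 on HFD and 885, 1163 and 1013 on ND, and the keratin gene Krt18 fell by 5.60 ± 0.97 (SE). Lcn2, a secreted lipocalin made by epithelium, neutrophils and adipocytes, read 439, 42.3 and 154 on HFD and 4093, 6324 and 6852 on ND, a fall of 5.31 ± 0.73. Cd52, a surface glycoprotein of lymphocytes that epididymal epithelium also makes, read 333, 772 and 267 on HFD and 4802, 7155 and 7443 on ND, and T- and B-cell genes such as Cd3e and Cd79a stayed under the filter. Of the 5 lymphocyte genes tested 2 fell and 0 rose (relative to adipocyte markers, 5 lower; 1 fell without mice 686 and 690).

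Sperm and liver transcripts also differed. All 11 tested sperm genes fell (relative to adipocyte markers, 11 lower), with sums of 256 to 439 on HFD and 1526 to 30214 on ND, but the ND level rested on mice 686 and 690. Tnp1, which encodes a transition protein of sperm chromatin, read 4411, 127 and 2827 on ND and at most 55.2 on HFD. Its call was lost without any of mice 546, 686 or 690 (adjusted p of 0.0676 to 0.0787), and of the 11 genes 7 were called lower without mouse 686, 7 without mouse 690 and 0 without both. In the hepatocyte list 10 of 11 tested genes fell (relative to adipocyte markers, 11 lower), among them Alb, the albumin gene, at 142, 434 and 83.5 against 785, 1926 and 1312. The falls numbered 6 without mouse 546, 5 without mouse 560 or 687, 4 without mouse 690 and 3 without mice 686 and 690. The hepatocyte sums were 4826 to 6693 on HFD and 6495 to 10724 on ND, so their ranges overlapped slightly. None of 5 tested skeletal muscle genes was called (1 higher without mouse 560; relative to adipocyte markers, 0 higher and 2 lower), and mouse 547 stood above the rest, with the myoglobin gene Mb at 26.9, 950.0 and 7.86 on HFD. Myl1, a myosin light chain gene, rose by 3.99 ± 0.67, and its HFD signals of 338, 1201 and 226 were highest in the same mouse.

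**Figure D1:**
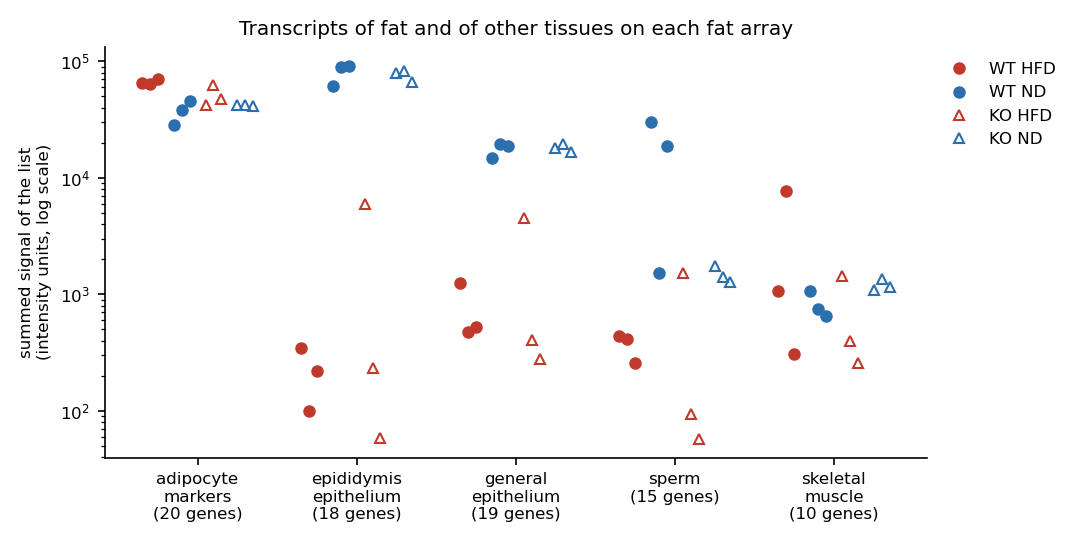
Summed signal (intensity units, log scale) of 5 gene lists on each fat array, with filled circles for WT and open triangles for KO, red for HFD and blue for ND. Epididymis genes summed to 61027 to 91760 on WT ND arrays and to at most 347 on WT HFD arrays, while adipocyte markers summed to 28351 to 45767 on ND and 63851 to 70084 on HFD.

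The medians of the gene lists lay on both sides of that of all genes. Of the 34 lists, those of fat expansion, metabolite receptors, endothelium, collagens, lipolysis, matrix and macrophages had medians between 1.62 and 4.14. Medians under -0.03, the value of all genes, were found for the unfolded protein response, smooth muscle, cholesterol synthesis and the epididymis, epithelium, sperm and hepatocyte lists.

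**Figure D2:**
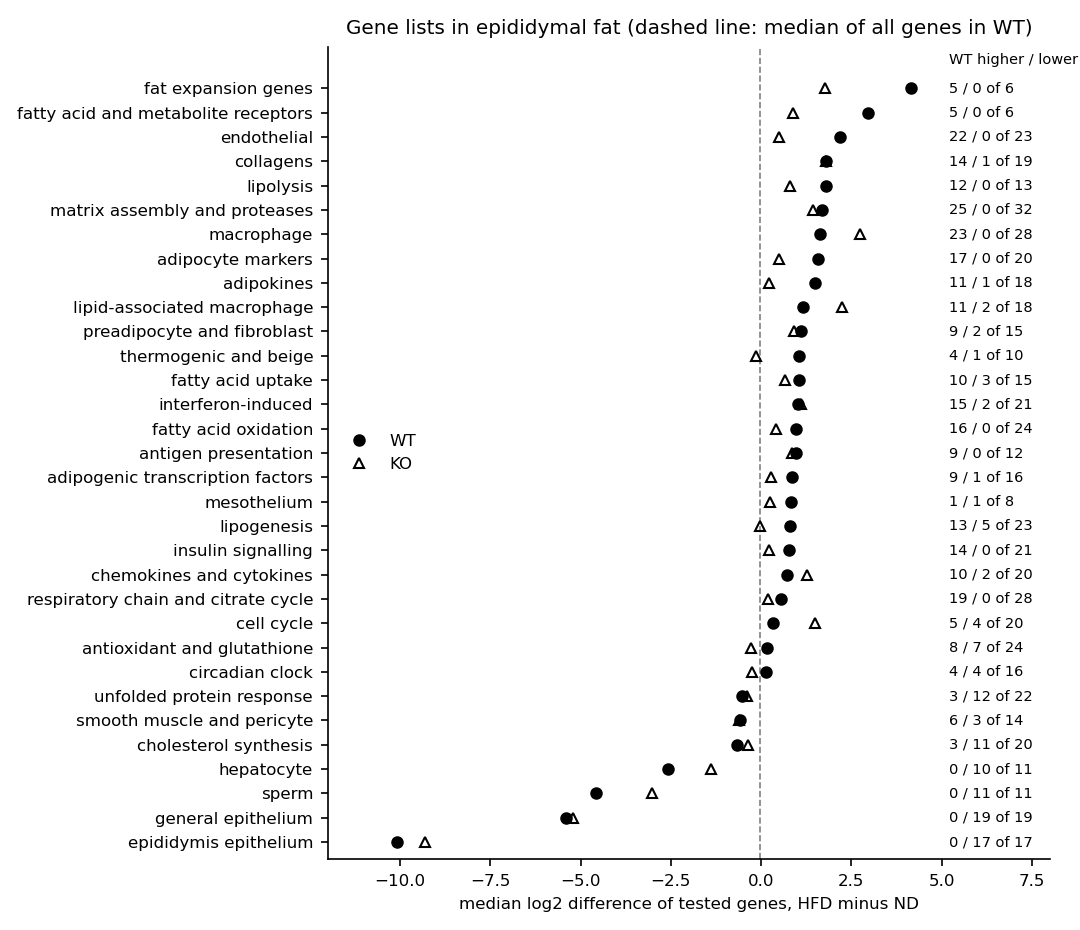
Median log2 difference (HFD minus ND) of the tested genes of each list with at least 6 of them, with filled circles for WT and open triangles for KO, and the WT counts higher and lower at the right. On the deposited scale the WT medians run from -10.07 for epididymis genes to 4.14 for fat expansion genes, and relative to adipocyte markers most genes of most lists were lower.

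Genes of mature adipocytes were mostly higher on HFD. Of 20 tested markers 17 rose and none fell, with a median of 1.58 and sums of 63851 to 70084 on HFD against 28351 to 45767 on ND, which did not overlap. Relative to their own median 3 were higher and 8 lower, so members changed by unequal amounts. Trarg1, a regulator of glucose transporter traffic, read 1181, 1255 and 1231 on HFD and 67.6, 106 and 150.2 on ND, a rise of 3.57 ± 0.30 (adjusted p = 5.74e-06). Aqp7, the glycerol channel of adipocytes, rose by 3.44 ± 0.32 and Dgat2, which completes triacylglycerol synthesis, by 2.63 ± 0.32. Plin4 read 4576, 4431 and 5032 on HFD and 792, 1654 and 2098 on ND, and Cidec rose by 1.53 ± 0.28. Retn, which encodes resistin, rose by 1.22 ± 0.40 (adjusted p = 0.0219), a call that was lost when any of mice 546, 560, 686 or 687 was left out (adjusted p of 0.052 to 0.0687). Some of the brightest markers did not pass: Adipoq differed by 0.40 ± 0.20 (adjusted p = 0.11) and Fabp4 by 0.11 ± 0.18 (adjusted p = 0.641). Adipoq passed without mouse 690 (0.57), and Fabp4 passed when its probe sets were averaged (1.38). ND mouse 686 had the lowest Adipoq signal, and the HFD and ND signals of Fabp4 overlapped.

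Transcription factors of adipocyte differentiation rose in 9 of 16 cases and fell in 1, with a median of 0.85 (relative to adipocyte markers, 1 higher and 10 lower; 0 fell without mice 686 and 690). Pparg, the master regulator of adipogenesis, read 848, 701 and 816 on HFD and 107, 145 and 173 on ND, a rise of 2.50 ± 0.19 (adjusted p = 3.2e-06). Its partner gene Cebpa read 404, 568 and 651 on HFD and 109, 72.8 and 105 on ND, and rose by 2.49 ± 0.25. In both genes the lowest HFD array was more than 3 times the highest ND array. Ebf1, an early B-cell factor that also acts in adipogenesis, rose by 3.27 ± 0.27, the oxysterol receptor gene Nr1h3 by 1.51 ± 0.25 and Klf4 by 1.24 ± 0.09. Klf5 fell at least 2.13-fold. The lipogenic regulators Srebf1 (0.20 ± 0.17) and Mlxipl (0.09 ± 0.28) and the early factor gene Cebpb (0.16 ± 0.22) did not pass.

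Genes known to mark expanding fat showed the widest rises of any list. In all 5 of 6 rose, with a median of 4.14 (relative to adipocyte markers, 4 higher and 1 lower). Lep, which encodes the satiety hormone leptin, read 2398, 1983 and 1009 on HFD and 19.5, 7.38 and 155 on ND, a rise of 5.90 ± 0.94 (59.9-fold, adjusted p = 0.000331). The ND arrays differed from each other by far more than the HFD arrays, and mouse 690 held most of the ND signal. The secreted Wnt antagonist gene Sfrp5 read 1454, 1315 and 735 on HFD and 10.8, 17.8 and 29.3 on ND, at least 58.0-fold higher. The imprinted gene Mest, a marker of adipocyte enlargement, read 3030, 1544 and 1299 on HFD and 68.8, 57.5 and 252 on ND. Npr3, the clearance receptor for natriuretic peptides, rose by 4.09 ± 0.52. Mice 546 and 690 were the highest of their groups for Mest. No ND array reached an HFD array for any of these 4 genes, which was a condition for being named among the largest rises.

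The Lep promoter is shown as that of the hormone gene with the widest fitted rise among adipokines read above the filter in both groups. It lies at chr6:29059971-29060270 on the plus strand of GRCm38.p6, from 250 bases before the RefSeq start to 50 bases after it:
Lep: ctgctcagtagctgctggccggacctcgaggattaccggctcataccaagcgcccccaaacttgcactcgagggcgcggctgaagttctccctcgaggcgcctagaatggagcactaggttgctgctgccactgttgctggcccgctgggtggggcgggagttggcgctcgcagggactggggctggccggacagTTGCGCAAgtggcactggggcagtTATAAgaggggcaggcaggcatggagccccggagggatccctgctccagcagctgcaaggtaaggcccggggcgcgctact
The capitals mark TTGCGCAA, a palindromic motif bound by C/EBP proteins such as the product of Cebpa, which begins 55 bases before the start, and TATAA, 31 bases before it. TTGCGCAA, which is its own reverse complement, occurs in 60 of 32851 promoters (0.183%) and was not found in the Lcn5 window. A match is a description of the letters and not a measured binding site.

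Adipokines and other secreted factors rose in 11 of 18 cases and fell in 1, Lcn2, with a median of 1.49 (relative to adipocyte markers, 2 higher and 8 lower). Rarres2, which encodes the chemoattractant chemerin, read 2281, 2888 and 1998 on HFD and 402, 438 and 421 on ND, a rise of 2.49 ± 0.16 (adjusted p = 1.25e-06). Angptl4, an inhibitor of lipoprotein lipase, read 3619, 3086 and 3848 against 551, 779 and 877. Vegfa, the main growth factor of blood vessels, read 869, 534 and 670.2 on HFD and 127, 269 and 236 on ND, a rise of 1.75 ± 0.28. In each of these 3 genes the groups stood apart. The neuregulin gene Nrg4 rose by 2.22 ± 0.35, the retinol carrier gene Rbp4 by 2.10 ± 0.42, the Aplnr ligand gene Apln by 1.36 ± 0.28 and the growth factor gene Igf1 by 1.23 ± 0.26. Saa3, an acute phase protein gene, read 53.1, 457 and 121 on HFD and 27.9, 129 and 28.2 on ND and did not pass (adjusted p = 0.0988).

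**Figure D3:**
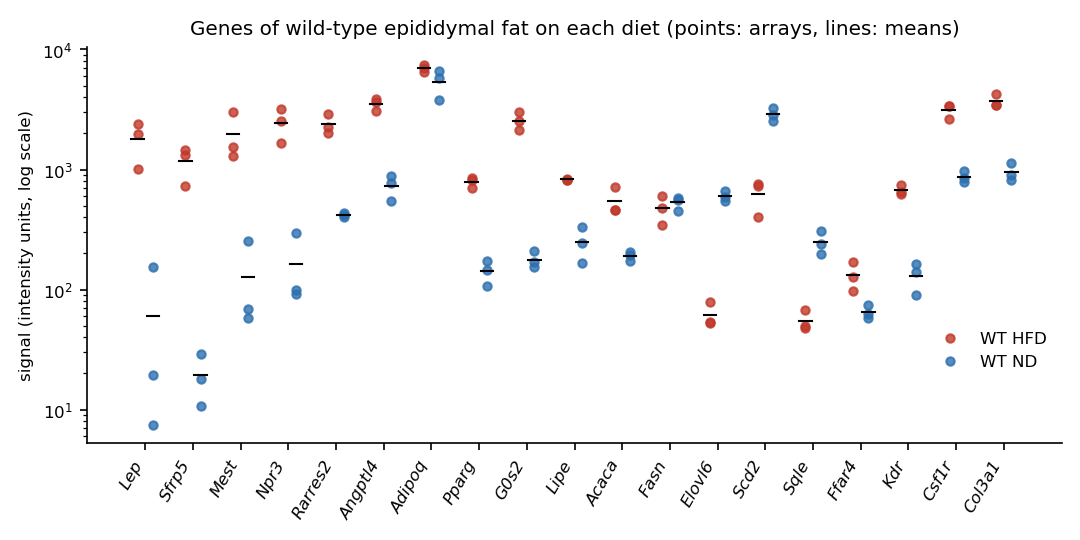
Signals (intensity units, log scale) of 19 genes on the 3 WT HFD arrays (red) and 3 WT ND arrays (blue), with black lines at the group means. Lep averages 1797 on HFD and 60.7 on ND and Elovl6 averages 61.7 and 598, while the Adipoq and Fasn groups lie close together.

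Genes of lipolysis, the release of fatty acids from stored fat, were higher in 12 of 13 cases, with a median of 1.80 (relative to adipocyte markers, 6 higher and 5 lower). Pnpla2, which encodes the triacylglycerol lipase ATGL, read 2009, 2348 and 2566 on HFD and 639, 892 and 752 on ND, a rise of 1.61 ± 0.18. Its inhibitor gene G0s2 read 3026, 2115 and 2535 on HFD and 208, 168 and 154 on ND, a rise of 3.85 ± 0.29 (14.5-fold, adjusted p = 3.02e-06). The inhibitor thus rose by more than the lipase on the log2 scale. Lipe rose by 1.80 ± 0.28 in its brightest probe set, and averaged over all its probe sets the difference was -0.66 and did not pass (adjusted p = 0.31). The monoacylglycerol lipase gene Mgll rose by 1.53 ± 0.20, the protein kinase A subunit gene Prkar2b by 3.31 ± 0.45 and Pde3b, which degrades cyclic AMP, by 1.21 ± 0.22. Receptors that restrain lipolysis rose as well: the lactate receptor gene Hcar1 was at least 4.4-fold and the ketone and niacin receptor gene Hcar2 at least 4.35-fold higher. Abhd5, the activator of ATGL, did not pass (0.52 ± 0.21, adjusted p = 0.0561).

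Fatty acid uptake genes rose in 10 of 15 cases and fell in 3, with a median of 1.05 (relative to adipocyte markers, 0 higher and 10 lower), and 6 rose without mice 686 and 690. Gpihbp1, which holds lipoprotein lipase on capillary endothelium, read 3714, 3545 and 3843 on HFD and 428, 799.6 and 876 on ND, a rise of 2.47 ± 0.27. The fatty acid translocase gene Cd36 rose by 1.37 ± 0.18, Fabp5 by 2.53 ± 0.21, and the caveola genes Cav1 and Cavin1 by 1.63 ± 0.19 and 2.22 ± 0.20. Of the 3 falls Got2, a mitochondrial aminotransferase also found at the plasma membrane, was the largest, at 341, 365 and 295 on HFD against 1654, 2710 and 2442 on ND. The transporter gene Slc27a4 fell by 1.09 ± 0.12 and the acyl-CoA synthetase gene Acsl4 by 1.42 ± 0.25.

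Lipid synthesis was split by step. Of 23 tested genes 13 rose and 5 fell, with a median of 0.80 (relative to adipocyte markers, 0 higher and 17 lower), and 7 rose without mice 686 and 690. Fatty acid elongation and desaturation genes made up 4 of the 5 falls. Elovl6, which elongates palmitate, read 54.1, 53.1 and 78.0 on HFD and 545, 661 and 589.7 on ND, a fall of 3.30 ± 0.21 (adjusted p = 9.27e-07). Scd2, a stearoyl-CoA desaturase, read 755, 735 and 399.7 against 2554, 3262 and 2872 and fell by 2.25 ± 0.25. The desaturase genes of polyunsaturated fatty acids, Fads1 and Fads2, fell by 2.01 ± 0.35 and 4.36 ± 0.87, and Acly, which supplies cytosolic acetyl-CoA, by 1.34 ± 0.12. The groups did not overlap for any of the 5. Elovl5 rose by 1.20 ± 0.11, Acaca, which makes malonyl-CoA, by 1.49 ± 0.21 and the malic enzyme gene Me1 by 1.87 ± 0.36. Fasn, the fatty acid synthase gene, read 343, 479 and 599.9 on HFD and 455, 580.4 and 559 on ND and did not pass (-0.19 ± 0.29, adjusted p = 0.588), nor did Scd1 (-0.05 ± 0.19), for which 1 probe set ran the other way and the mean of its probe sets passed (1.01). Among genes of triacylglycerol assembly Dgat2 rose by 2.63 ± 0.32 and Agpat2 by 0.93 ± 0.18.

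Cholesterol synthesis genes fell in 11 of 20 cases and rose in 3, with a median of -0.66 (relative to adipocyte markers, 20 lower; 1 rose without mice 686 and 690). Sqle, the squalene epoxidase gene, read 49.8, 47.5 and 66.9 on HFD and 307, 241 and 197 on ND, a fall of 2.17 ± 0.31. Fdps, which makes farnesyl diphosphate, read 109, 147 and 67.1 on HFD and 699, 687 and 586 on ND, a fall of 2.68 ± 0.26 (adjusted p = 1.27e-05). The sterol reductase gene Tm7sf2 fell by 3.16 ± 0.26, Nsdhl by 1.51 ± 0.10 and Srebf2, the regulator of the pathway, by 1.63 ± 0.19. Against this direction Hmgcs1, an early step of the pathway, rose by 1.21 ± 0.17 and Insig1, which retains SREBP in the endoplasmic reticulum, by 0.88 ± 0.21.

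**Figure D4:**
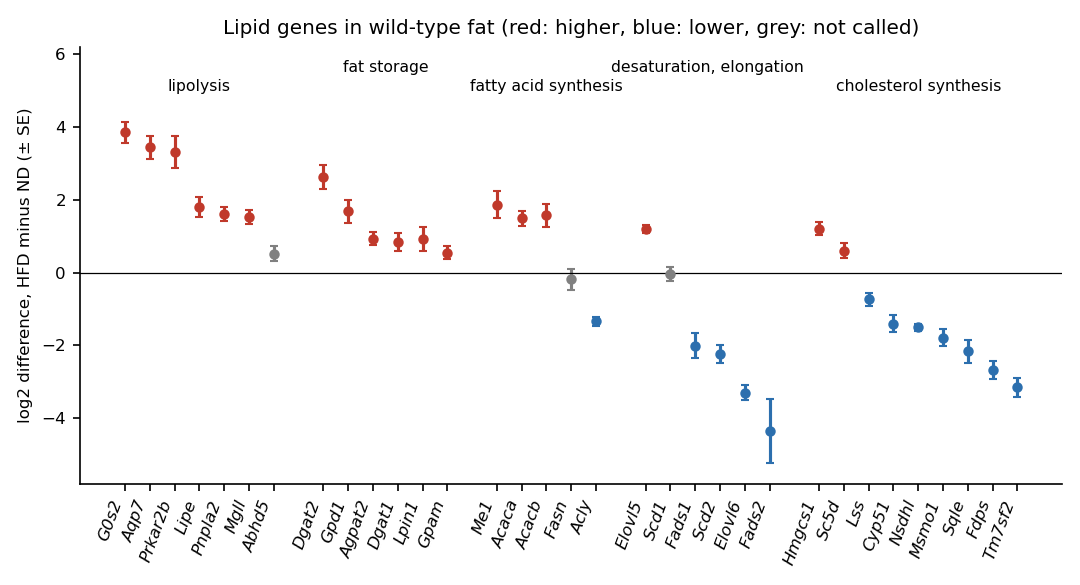
Log2 difference (HFD minus ND) with its SE for lipid genes in WT fat, grouped by function, red for genes called higher, blue for called lower and grey for not called. On the deposited scale lipolysis and fat storage genes lie above 0, and Elovl6 (-3.30), Fads2 (-4.36) and most cholesterol synthesis genes lie below it; relative to adipocyte markers no lipogenesis or cholesterol synthesis gene was higher.

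Genes of mitochondrial metabolism were mostly higher. Fatty acid oxidation genes rose in 16 of 24 cases and none fell, with a median of 0.96 (relative to adipocyte markers, 0 higher and 19 lower). Decr1, which reduces unsaturated intermediates, read 1496, 1556 and 1546 on HFD and 384, 407 and 556 on ND, a rise of 1.79 ± 0.16. Cpt2, the inner-membrane carnitine acyltransferase gene, rose by 1.75 ± 0.21, the carnitine carrier gene Slc25a20 by 1.46 ± 0.15 and Acadm by 1.38 ± 0.19. The regulators Ppara (-0.31 ± 0.34) and Ppargc1a (-0.90 ± 0.80) did not pass. Respiratory chain and citrate cycle genes rose in 19 of 28 cases and none fell, with a median of 0.54 (relative to adipocyte markers, 0 higher and 26 lower; 1 fell without mouse 686). The pyruvate carboxylase gene Pcx rose by 1.49 ± 0.22, Idh3a by 1.33 ± 0.20, the fumarase gene Fh1 by 0.82 ± 0.11 and the ATP synthase gene Atp5a1 by 0.69 ± 0.10. Without mice 686 and 690 the counts were 12 of 24 and 13 of 28.

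Thermogenic genes were uneven between mice. Of 10 tested, 4 rose and 1 fell, with a median of 1.05 (relative to adipocyte markers, 0 higher and 5 lower; 0 fell without mice 686 and 690). Ucp1, the uncoupling protein of brown and beige fat, read 17.1, 123 and 634 on HFD and 1.10, 2.23 and 154 on ND and did not pass (adjusted p = 0.144). The cytochrome oxidase gene Cox8b, also high in brown fat, read 83.1, 384 and 688 against 23.6, 13.5 and 108. HFD mouse 560 and ND mouse 690 were the highest of their groups for both genes. The muscle and brown fat gene Ucp3 rose by 1.06 ± 0.29.

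Insulin signalling genes rose in 14 of 21 cases and none fell, with a median of 0.77 (relative to adipocyte markers, 0 higher and 19 lower), and 8 rose without mice 686 and 690. Akt2, the insulin-responsive kinase of fat, read 325, 375 and 516 on HFD and 179, 157 and 189 on ND, a rise of 1.19 ± 0.20. The transcription factor gene Foxo1 rose by 1.47 ± 0.18 and Phldb1, an Akt-binding protein gene, by 2.13 ± 0.21. Socs3, an inhibitor of cytokine and insulin receptor signalling, read 148, 166 and 109 against 30.4, 50.6 and 21.4 and rose by 2.11 ± 0.28. The receptor gene Insr did not pass (0.36 ± 0.20, adjusted p = 0.143).

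Of the receptors that sense fatty acids or metabolites, 5 of 6 tested rose, with a median of 2.95, or 2.13 with dim signals at their bound (relative to adipocyte markers, 3 higher and 2 lower). The succinate receptor gene Sucnr1 read 1311, 978 and 975 on HFD and 91.3, 84.2 and 149.6 on ND, a rise of 3.36 ± 0.38. Ffar2, a receptor for short-chain fatty acids, read 519, 511 and 683 on HFD and 84.7, 82.2 and 134 on ND, a rise of 2.53 ± 0.30. Ffar4 itself rose less, by 0.99 ± 0.21 (adjusted p = 0.00223). Its signals of 97.3, 126 and 171 on HFD lay above all 3 ND signals of 62.0, 58.3 and 73.7. The lysophosphatidic acid receptor gene Lpar1 differed by -0.19 ± 0.20 and did not pass.

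Chaperones of the endoplasmic reticulum were lower on HFD. The ND arrays also held far more epididymal RNA, whose part in these falls was not tested. In the unfolded protein response list 12 of 22 genes fell and 3 rose, with a median of -0.52 (relative to adipocyte markers, 22 lower). The rises numbered 1 without mouse 546, 686 or 690 and 0 without mice 686 and 690. Manf, a secreted stress protein gene, read 537, 802 and 477 on HFD and 1908, 2465 and 1928 on ND, a fall of 1.82 ± 0.20. The disulfide isomerase genes Pdia6 and Pdia4 fell by 1.40 ± 0.18 and 1.32 ± 0.20 and Herpud1, which takes part in degrading misfolded proteins, by 1.02 ± 0.11. Edem1 rose by 0.92 ± 0.20. The stress transcription factor genes Ddit3 (-0.23 ± 0.14) and Atf3 (0.49 ± 0.39) did not pass.

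Endothelial genes were higher on HFD in 22 of 23 cases and none fell, with a median of 2.18 (relative to adipocyte markers, 3 higher and 3 lower). Their sums were 15046 to 16683 on HFD and 2838 to 4085 on ND, and 20 of 23 were higher without mice 686 and 690. Aplnr, the apelin receptor gene, read 2078, 1546 and 1072 on HFD and 67.9, 53.2 and 59.3 on ND, a rise of 4.66 ± 0.21 (25.2-fold, adjusted p = 1.15e-07). Kdr, the main receptor for VEGFA, read 625, 747 and 651 on HFD and 90.1, 163 and 139 on ND, a rise of 2.41 ± 0.23. The endothelial cadherin gene Cdh5 read 902, 793 and 829.9 on HFD and 89.4, 143 and 111 on ND. The 3 HFD arrays were close to each other for Kdr and Cdh5, and the lowest lay more than 3 times above the highest ND array. The angiopoietin receptor gene Tek rose by 2.20 ± 0.12 and the von Willebrand factor gene Vwf by 1.93 ± 0.26, whereas Pecam1 rose by 0.97 ± 0.23 and Cd34, which preadipocytes also express, did not pass (0.29 ± 0.14, adjusted p = 0.108).

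Pericyte and smooth muscle genes went opposite ways within 1 list, in which 6 of 14 rose and 3 fell (relative to adipocyte markers, 0 higher and 12 lower). The rises were the pericyte genes Pdgfrb (2.14 ± 0.19), Abcc9 (1.98 ± 0.18), Rgs5 (1.37 ± 0.21), Kcnj8 (1.16 ± 0.21), Cspg4 (1.13 ± 0.18) and Notch3 (0.92 ± 0.18). The falls were contractile genes of smooth muscle, among them Actg2 at 168, 29.4 and 109.7 on HFD and 1668, 2583 and 2479 on ND. Actg2 and the calponin gene Cnn1 passed narrowly (adjusted p of 0.0269 and 0.0422). Both calls were lost without any 1 of the WT mice other than 546, with adjusted p of 0.0509 to 0.0918 for Actg2 and 0.0576 to 0.158 for Cnn1, and of the 3 falls none was called without 1 of these 5 mice or without mice 686 and 690. Without KO mouse 427, which shares the estimate of spread, 7 genes were called lower in WT fat. That mouse read 1443 for Actg2, against 12.6 and 4.29 in the other KO HFD mice and 2192, 2545 and 2283 in the KO ND mice. Acta2 did not pass (-0.32 ± 0.26).

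Macrophage genes were higher in 23 of 28 cases and none fell, with a median of 1.62 (relative to adipocyte markers, 0 higher and 7 lower; 1 fell without mouse 687). Their sums were 15040 to 25786 on HFD, the highest in mouse 547, and 6311 to 7348 on ND, and 22 were higher without mice 686 and 690. Csf1r, the receptor for macrophage colony-stimulating factor, read 2625, 3409 and 3391 on HFD and 784, 848 and 963 on ND, a rise of 1.86 ± 0.14 (adjusted p = 3.09e-06). Adgre1, which encodes F4/80, read 221, 420.0 and 318 on HFD and 78.1, 91.3 and 82.8 on ND, a rise of 1.88 ± 0.28. The mannose receptor gene Mrc1 rose by 1.68 ± 0.18, the NADPH oxidase gene Cybb by 2.17 ± 0.27 and the lysosomal gene Cd68 by 2.03 ± 0.36. Resident macrophage genes were among the rises, with Cd209f at 2.52 ± 0.44 and Lyve1, which lymphatic endothelium also expresses, at 1.63 ± 0.25.

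Genes of lipid-associated macrophages, which take up lipid around dying adipocytes, rose in 11 of 18 cases and fell in 2, with a median of 1.17 (relative to adipocyte markers, 1 higher and 8 lower). The falls numbered 4 without mouse 547 and 1 without mouse 546, 560, 687 or 690 or without mice 686 and 690. The lipid receptor gene Trem2 read 177, 285 and 112 on HFD and 39.6, 15.9 and 4.27 on ND, at least 9.23-fold higher. The integrin gene Itgax was at least 3.58-fold higher, and the lysosomal lipase gene Lipa rose by 1.85 ± 0.24 and Lgals3 by 1.70 ± 0.28. Some defining members did not follow: Gpnmb read 215, 859.5 and 583 on HFD and 239, 262 and 187 on ND and did not pass (adjusted p = 0.0579), and Cd9 fell by 0.97 ± 0.25. Atp6v0d2, a proton pump subunit gene, was called lower (-1.34 ± 0.48), and that call was lost without any of mice 546, 560, 687 or 690 (adjusted p of 0.0848 to 0.139).

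Chemokine and cytokine genes rose in 10 of 20 cases and fell in 2, with a median of 0.71, or 0.65 with dim signals at their bound (relative to adipocyte markers, 3 higher and 11 lower; 1 fell without mice 686 and 690). Cxcl9, an interferon-induced T-cell chemokine gene, read 669, 614 and 436 on HFD and 41.8, 11.8 and 43.3 on ND, a rise of 4.35 ± 0.52. The eosinophil chemokine gene Ccl11 rose by 2.92 ± 0.35 and Ccl9 by 2.23 ± 0.38. Ccl2, which recruits monocytes, read 82.3, 186 and 58.8 against 9.43, 23.4 and 18.8, at least 5.01-fold higher. Cx3cl1 fell at least 3.72-fold and Cxcl14 by 1.80 ± 0.50, and Tnf and Il6 stayed under the filter.

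Interferon-induced genes rose in 15 of 21 cases and fell in 2, with a median of 1.01 (relative to adipocyte markers, 2 higher and 13 lower). The falls numbered 1 without any single WT mouse other than 560, without mice 686 and 690, or without KO mouse 427. The guanylate-binding protein gene Gbp2 read 614, 701 and 378 on HFD and 62.0, 66.2 and 63.6 on ND, a rise of 3.09 ± 0.27. Iigp1, an interferon-induced GTPase gene, rose by 2.24 ± 0.35, Ifit2 by 2.02 ± 0.25 and the immunoproteasome gene Psmb8 by 1.22 ± 0.13. Irf9 fell by 0.83 ± 0.17. Antigen presentation genes rose in 9 of 12 cases and none fell, with a median of 0.96, or 0.73 with dim signals at their bound (relative to adipocyte markers, 0 higher and 11 lower), and 4 rose without mice 686 and 690. The MHC class II gene H2-Aa read 2802, 2863 and 2491 on HFD and 1036, 1271 and 1560 on ND, and the invariant chain gene Cd74 rose by 1.01 ± 0.20.

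Collagen genes rose in 14 of 19 cases and fell in 1, with a median of 1.81, or 1.74 with dim signals at their bound (relative to adipocyte markers, 2 higher and 7 lower). Their sums were 16152 to 20639 on HFD and 5818 to 6017 on ND. The fibrillar collagen gene Col3a1 read 3440, 4298 and 3471 on HFD and 1126, 894 and 819 on ND, a rise of 1.99 ± 0.17 (adjusted p = 5.15e-06). Col5a2 rose by 2.72 ± 0.25, the basement membrane collagen gene Col4a2 by 2.32 ± 0.20 and Col6a3, whose product is cleaved to endotrophin, by 1.94 ± 0.23. Col27a1 was the single collagen called lower (-0.65 ± 0.25). That call was lost without any of mice 547, 560, 686 or 690 (adjusted p of 0.065 to 0.171) and without KO mouse 427. It was also lost with quantile normalization as another scaling (adjusted p = 0.271), without the filter (0.0626) and with probe sets averaged (0.0991).

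Genes of matrix assembly and its proteases rose in 25 of 32 cases and none fell, with a median of 1.69, or 1.61 with dim signals at their bound (relative to adipocyte markers, 3 higher and 11 lower). Lama4, a laminin chain of endothelial and adipocyte basement membranes, read 706, 716 and 669 on HFD and 136, 119 and 154 on ND, a rise of 2.36 ± 0.13. The perlecan gene Hspg2 rose by 3.04 ± 0.24, the protease gene Adamts5 by 3.03 ± 0.32 and Sparc by 2.19 ± 0.16. The collagen cross-linking gene Lox rose by 1.73 ± 0.20 and the fibronectin gene Fn1 by 1.99 ± 0.31. Timp1, a protease inhibitor gene often raised in inflamed fat, read 30.8, 131 and 37.0 on HFD and 45.6, 55.7 and 39.7 on ND, with overlapping groups, and did not pass (adjusted p = 0.765).

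Progenitor and fibroblast genes rose in 9 of 15 cases and fell in 2, with a median of 1.10 (relative to adipocyte markers, 0 higher and 8 lower), and 6 rose without mice 686 and 690. The fibroblast protease gene Fap read 110.0, 187 and 150.2 on HFD and 21.4, 19.6 and 29.2 on ND, a rise of 2.66 ± 0.29. The 2 falls were Dpp4, a marker of interstitial progenitors that epithelia also express, by 1.83 ± 0.21 and Pdgfra, a receptor of adipocyte progenitors, by 0.73 ± 0.17. Dcn, the decorin gene, did not pass (0.32 ± 0.16).

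Glutathione and antioxidant genes were divided, with 8 of 24 higher and 7 lower and a median of 0.17 (relative to adipocyte markers, 0 higher and 20 lower; 5 higher on the deposited scale without mice 686 and 690). Mgst3 read 3265, 2442 and 3082 on HFD and 467, 455 and 805 on ND, a rise of 2.39 ± 0.24, and Gpx7 rose by 1.76 ± 0.16. The quinone reductase gene Nqo1 read 49.8, 27.7 and 40.7 against 141, 186 and 149.5 and fell by 2.04 ± 0.25. The glutathione synthesis genes Gclm and Gclc fell by 1.55 ± 0.17 and 1.02 ± 0.15, and Gstt3 by 2.86 ± 0.26. Circadian genes rose in 4 of 16 cases and fell in 4 (relative to adipocyte markers, 0 higher and 15 lower), and 2 rose without mouse 546 and 6 without mouse 560. Hlf fell by 1.41 ± 0.25 and Nr1d1 was at least 2.87-fold higher.

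Cell cycle genes rose in 5 of 20 cases and fell in 4, with a median of 0.34 (relative to adipocyte markers, 0 higher and 18 lower), and 2 fell without mouse 546, 547 or 686 or without mice 686 and 690, and 1 without mouse 690. The cyclin gene Ccnd2 read 1147, 1176 and 1008 on HFD and 379, 399 and 359 on ND, a rise of 1.55 ± 0.12. The replication licensing genes Mcm5 and Mcm6 rose by 0.89 ± 0.20 and 1.19 ± 0.30, and Mcm2 fell by 1.11 ± 0.27. Mki67, a marker of dividing cells, read 71.9, 75.2 and 26.7 against 64.3, 21.9 and 20.0 and did not pass (adjusted p = 0.192). ND mouse 686, which carried sperm transcripts, had the highest ND signal of the mitotic gene Ccnb2 (275, 23.2 and 94.2). Of 8 mesothelial genes 1 rose and 1 fell (relative to adipocyte markers, 7 lower), and Msln and Wt1 did not pass. The mesothelial rise was lost without mouse 546, 560 or 690, and 2 genes rose without mouse 687.

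The largest rises and falls were ranked among called genes whose WT HFD and ND arrays did not overlap. The 10 largest rises read above the filter on both diets included, beside those named, Fcor (3.94 ± 0.32), a corepressor of FOXO1 in adipocytes, the prostaglandin E receptor gene Ptger3 (3.86 ± 0.52) and Tmem182 (3.80 ± 0.26). The HFD arrays of Fcor lay close together, at 399, 397 and 415, and its ND arrays read 27.4, 19.1 and 34.6. Genes under the filter on ND with the largest bounds included, beside Sfrp5, the endothelial gene Myct1 (at least 15.2-fold higher), Crtac1 (15.4-fold) and the ubiquitin-like gene Ubd (12.4-fold), which cytokines induce. Ankef1 was at least 19.4-fold higher in its brightest probe set, but another probe set ran the other way and their mean did not pass (adjusted p = 0.34). The 10 largest falls read above the filter on both diets were Cuzd1, Spink2, Ntsr2, Gstm7, Ptgds, Ces5a, Ap1s2, Krt18, Ddit4l and Tnp1, from -7.77 to -5.46. That the 3 WT ND arrays lay above the 3 WT HFD arrays was a condition for choosing these 10. In KO fat the ND arrays also lay above the HFD arrays for all but Tnp1. For Tnp1 KO HFD mouse 427 read 139 and the KO ND mice 54.5 to 122. Cuzd1, Ces5a, Krt18 and Tnp1 belong to the epididymis, epithelium and sperm lists.

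The diet comparison in KO fat gave 2564 genes higher (22.1%) and 3090 lower (26.6%), with a median of -0.08. In the 2 genotypes 4058 genes were called in both, 3938 of them in the same direction, which is 61.3% of the WT calls and 69.6% of the KO calls. The diet effect itself differed between genotypes for 1273 genes (11.0%), more positive in WT for 836 (7.2%) and more negative for 437 (3.76%). This split depended on the scaling: relative to adipocyte markers the effect was more positive in WT for 61 genes (0.525%) and more negative for 5458 (47.0%), and the median difference between genotypes, 0.06 on the deposited scale, moved by -1.17. The directions of differences between genotypes that follow are those of the deposited scale, with the relative counts beside them. The Actb ratio of 3' to 5' probe sets, raised only on the WT HFD arrays, moves with this comparison, and its part was not tested. That count was 782 without mouse 546 and 726 without mouse 560, and 1384 without KO mouse 427, an alternative chosen after seeing the data.

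Endothelial genes had a more positive diet effect in WT than in KO fat in 17 of 23 cases (16 to 19 with 1 WT array left out, 18 without KO mouse 427 and 10 without mice 686 and 690). Relative to adipocyte markers it was more positive for 1, Kdr, and more negative for 1. Their median was 0.49 in KO fat, with sums of 6058 to 8653 on HFD and 4531 to 4924 on ND. For Kdr the KO difference was -0.19, and the WT effect exceeded it by 2.60 (adjusted p = 0.0033). The WT ND arrays were also lower for the list than the KO ND arrays, so both diets contributed to the difference. The 6 genes of smallest interaction p rose in WT, with KO differences of -0.10 to 0.57: Adgrl4 (2.58 against 0.16) and Cdh13 (2.22 against -0.08), both expressed by endothelium, Cyyr1 (2.37 against -0.10), the repair gene Ercc1 (1.38 against 0.11), Lama4 (2.36 against 0.57) and Tm4sf1 (2.12 against 0.41). Relative to adipocyte markers the differences of Adgrl4 (1.24), Cdh13 (1.13) and Cyyr1 (1.30) were called and those of Ercc1 (0.10), Lama4 (0.63) and Tm4sf1 (0.53) were not.

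Adipocyte genes had a more positive diet effect in WT than in KO fat in 7 of 20 cases, in 4 without mouse 546, 2 without mouse 560 and 3 without mice 686 and 690 (relative to adipocyte markers, 2 more positive and 5 more negative). Pparg rose by 2.50 in WT and 0.71 in KO fat, a difference of 1.78 (adjusted p = 0.00511), and G0s2 by 3.85 and 1.34 (difference 2.51, adjusted p = 0.00617). Vegfa rose by 1.75 in WT and fell by 0.77 in KO fat (difference 2.53, adjusted p = 0.00541), and Nrg4 rose by 2.22 and fell by 1.30 (difference 3.52, adjusted p = 0.00424). Ffar4 rose by 0.99 in WT fat, while the KO difference of -0.38 did not pass (difference 1.37, adjusted p = 0.0175). Relative to adipocyte markers the differences of G0s2 (1.34), Vegfa (1.35) and Nrg4 (2.35) were called and those of Pparg (0.61) and Ffar4 (0.20) were not. Whether the Ffar4 probe set reads the region removed in the KO mice is unknown here, so its KO signals do not check that label.

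Macrophage genes ran the other way, with a diet effect more negative in WT than in KO fat for 8 of 28 and more positive for 1, Lyve1, whose call was lost without any of mice 547, 560, 686, 690 or KO mouse 427 (adjusted p of 0.0585 to 0.0771). The 8 became 3 without mouse 546, 2 without mouse 560, 15 without mouse 547, 13 without KO mouse 427 and 3 without mice 686 and 690, and 25 relative to adipocyte markers. Adgre1 rose by 1.88 in WT and 3.74 in KO fat (difference -1.86, adjusted p = 0.017). The KO HFD sums of the list were 36646 to 60328, above all WT HFD arrays. Lipid-associated macrophage genes were more negative in 8 of 18 cases (5 without mouse 560, 4 without mice 686 and 690 and 16 relative to adipocyte markers), among them Gpnmb, which rose by 4.24 in KO fat (difference -3.17, adjusted p = 0.0123). Cell cycle genes were more negative in 8 of 20 cases (18 relative to adipocyte markers). The 8 became 3 without mouse 546, 3 without mouse 560 and 4 without mouse 686. Over all genes the 1273 differences became 782, 726 and 935 in the same settings. ND mice 686 and 690 were high for Ccnb2 and carried sperm transcripts, whose part in the cell cycle differences was not tested. Timp1 differed by -3.60 (adjusted p = 0.0123). Of the collagen, chemokine, interferon-induced and antigen presentation genes none passed this test with all arrays, and 11, 11, 9 and 10 were more negative relative to adipocyte markers. With 1 array left out up to 2 of a list passed: 2 antigen presentation genes more negative without mouse 547, 1 chemokine gene more negative without mouse 547 or 560 and 2 without mouse 686, and 1 collagen gene more positive without mouse 687. On the positive side 1 interferon-induced gene passed without mouse 690, and 1 gene of the chemokine list and 1 interferon-induced gene without KO mouse 427 or without mice 686 and 690.

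**Figure D5:**
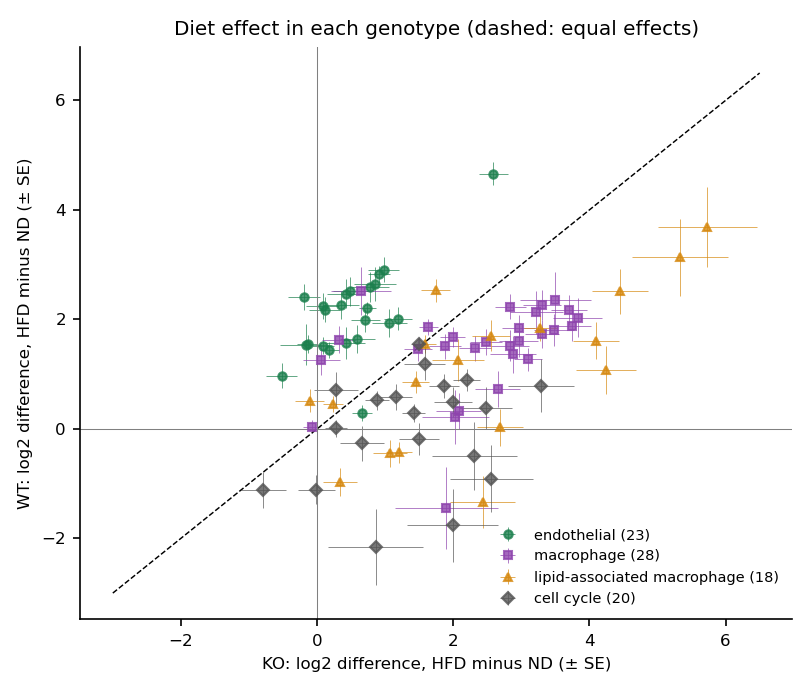
Log2 difference (HFD minus ND, with SE) in WT fat against that in KO fat for the tested genes of 4 lists, with a dashed line where the effects are equal. All endothelial genes but Cd34 lie above the line (medians 2.18 in WT and 0.49 in KO) and most macrophage genes below it (1.62 and 2.74), on the deposited scale; relative to adipocyte markers 1 of 23 endothelial genes was called more positive in WT and 25 of 28 macrophage genes more negative.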

How the data were processed

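RNA of 24 tissue samples, 1 array each, was measured on a mouse expression array, and the 12 fat arrays were analysed here. The authors deposited intensity values per probe set, computed with MAS5 per the submitters' processing notes. The MAS5 version is not given in those sources. Every array had the same trimmed mean. Of 45101 probe sets, 34945 carry a single gene symbol in the platform annotation, 932 carry several and 9160 none, and 64 are controls. The single-symbol probe sets stand for 18193 genes, each read by its brightest probe set. Signals were floored at their 10th percentile (1.08) and taken to log2. The 11613 genes whose mean log2 signal over the 12 fat arrays reached the median of all probe sets (a signal of 19.3) were tested.

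The 4 fat groups were fitted together with limma 3.58.1 in R 4.3.3 (8 residual degrees of freedom, eBayes with a mean-variance trend), with Benjamini-Hochberg adjustment over all 11613 genes. All p-values marked as adjusted come from this limma fit or its alternatives. They measure the spread between mice. A rank or permutation test on 3 arrays against 3 alone could not go below an exact two-sided p of 0.1, a bound that does not apply to limma. The code was tested on simulated data. A gene with 1 group mean under 19.3 is given as at least the fold between the other mean and 19.3.

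Genes were named by a rule: Ffar4, the 10 largest rises and falls, the 5 largest bounds each way, the anchors and smallest p-values of each list, and the 6 smallest p-values of the difference between genotypes. Other list members given by value were chosen after their values were seen, and members and lists were chosen with earlier results of these data known. Alternatives were another scaling, centring on adipocyte markers, no filter, no floor, a pseudocount of 16, every probe set as its own test, the 6 WT arrays alone, the mean of probe sets and leaving out arrays. Leaving out KO mouse 427, and giving list counts without mice 686 and 690, and those of differences between genotypes relative to adipocyte markers, were chosen after seeing the data. The ND array that remains without mice 686 and 690 is assumed to vary like the other groups. Promoters are from RefSeq on GRCm38.p6, and both genes searched were matched.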

Additional observations from a re-analysis of the deposited data

Results flagged for a closer look

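The diet effect (HFD minus ND, log2) of 71 genes named in the report differed between WT and KO fat by the interaction test of the limma fit, at an adjusted p under 0.05 over all genes. It was more positive in WT for 53 and more negative for 18. For 42 of the 71 the call was kept with any 1 of the WT arrays or KO mouse 427 left out, and for 29 it was lost at least once. More negative differences lost were those of Ccnb2, Cd68, Cd9, Cybb, Ddit3, Lipa, Mki67 and Ubd. More positive ones lost were Akt2, Angptl4, Aqp7, Cavin1, Ffar2, Fh1, Hspg2, Insr, Kcnj8, Lipe and Lyve1. Mlxipl, Notch3, Plin4, Pnpla2, Rarres2, Rbp4, Retn, Rgs5, Slc25a20 and Tmem182 were lost as well. Relative to adipocyte markers, 13 of the 53 and 18 of the 18 were called in the same direction. Centring moved the median difference of all genes by -1.17, so more negative differences could hardly be lost and their count checks nothing. On that scale 0.525% of all genes were more positive in WT and 47.0% more negative. The 13 were Adgrl4, Ankef1, Cdh13, Cyyr1, Fcor, G0s2, Kdr, Nrg4, Rbp4, Retn, Sucnr1, Trarg1 and Vegfa. The differences that follow are the WT effect minus the KO effect on the deposited scale.

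Among endothelial genes the difference was 2.06 for Aplnr, 2.60 for Kdr, 1.93 for Cdh5, 1.46 for Tek, 1.48 for Pecam1 and 2.10 for Myct1. It was 2.42 for Adgrl4 and 2.30 for Cdh13. The other genes named for their smallest interaction p gave 2.47 for Cyyr1, 1.27 for the repair gene Ercc1, 1.80 for Lama4 and 1.71 for Tm4sf1. Pericyte genes gave 1.79 for Abcc9, 1.17 for Kcnj8, 1.20 for Rgs5 and 0.90 for Notch3, and matrix genes gave 1.25 for Hspg2 and 1.05 for Sparc.

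Among adipocyte genes and their regulators the difference was 2.50 for Trarg1, 1.91 for Aqp7, 1.96 for Plin4, 2.34 for Retn, 1.78 for Pparg, 1.92 for Ebf1, 1.44 for Mlxipl, 2.80 for Fcor and 1.46 for Tmem182. Secreted factors gave 2.53 for Vegfa, 3.52 for Nrg4, 2.49 for Rbp4, 1.20 for Angptl4 and 0.93 for Rarres2. Lipolysis genes gave 2.51 for G0s2, 0.99 for Pnpla2, 1.43 for Lipe and 1.41 for Mgll. Other metabolic genes gave 1.54 for Acaca, 0.76 for Elovl5, 2.04 for Gpihbp1, 1.16 for Cavin1, 1.47 for Cpt2, 1.05 for Decr1, 0.86 for Slc25a20, 0.55 for Fh1 and 1.85 for Mgst3. Insulin signalling genes gave 1.09 for Akt2, 1.17 for Insr and 1.39 for Phldb1, and receptors gave 1.37 for Ffar4, 1.75 for Ffar2 and 2.37 for Sucnr1. Ankef1 gave 3.63.

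More negative differences were found for the macrophage genes Adgre1 (-1.86), Cd68 (-1.80) and Cybb (-1.53), while Lyve1 gave 1.31. Lipid-associated macrophage genes gave -3.17 for Gpnmb, -1.43 for Lipa, -1.30 for Cd9 and -3.77 for Atp6v0d2. Cell cycle genes gave -1.31 for Mcm5, -2.50 for Mki67 and -3.74 for Ccnb2. The stress genes Atf3 and Ddit3 gave -2.96 and -0.82, the sterol genes Fdps and Srebf2 gave -1.56 and -1.23, and Scd2 gave -1.78. The remaining differences were -3.60 for Timp1, -2.88 for Cd52 and -2.39 for Ubd.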

How the results depend on the processing

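Of 175 named genes called in WT fat, 166 kept direction and call in all 10 alternatives run on single genes, once the shift of the scaling is taken off. The other 9 lost the call in 1 or more, and 15 of 26 not called were called in 1 or more. With the shift taken off, centring on adipocyte markers could hardly change a direction, so these counts do not test the scaling. With the shift left in, 109 of all genes were higher, against 3239 on the deposited scale. Lipe, called higher, was at -0.66 when its probe sets were averaged. Centred on adipocyte markers, 109 genes were higher, 10428 lower and 5519 differed between genotypes (61 more positive in WT), and tested as single probe sets 4874 were higher and 5280 lower, since more features were tested. With 1 WT array left out, 2893 to 3207 genes were higher, 2751 to 3020 lower and 726 to 1509 differed between genotypes, with 782 without mouse 546 and 726 without mouse 560 against 1273. Without mice 686 and 690, 2202 were higher and 2181 lower. Averaging probe sets turned the medians of the lymphocyte (-2.98), antioxidant (-0.04), circadian (-0.03) and skeletal muscle (-0.00) lists. Leaving out 1 array moved the lymphocyte median (0.19 with all arrays; -0.07 without mouse 560 and -0.18 without mouse 686) to between -0.18 and 0.45 and the skeletal muscle median to between -1.54 and 1.04. The cause of these changes was not tested. Dim probe sets give bounds only. No paired analysis was possible because no mouse gave fat on both diets and the mouse numbers of the groups differ.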
